A study of Mus musculus with 6 samples.

Results

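The genes described here encode the adhesion proteins that hold neurons and their synapses together: cadherins, protocadherins, neurexins, neuroligins, LRRTM proteins, SynCAM proteins (Cadm), NCAM proteins, contactins and contactin-associated proteins. They were chosen by symbol in the platform annotation, and measured values entered only through a filter on low levels. Of 80 such genes with a probe set that named a single gene, 55 reached a mean intensity of 50 in at least 1 of the treatment groups, out of 10830 genes that did so in all. Each gene is represented by its brightest probe set over the 6 arrays. Probe sets differ in how brightly they bind, so levels are compared between arrays and not between genes.

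The RNA came from cortex of mice of the Glt25d2 bacTRAP line DU9, backcrossed for 3 to 5 generations from FVB onto C57BL/6, in which the regulatory region of Glt25d2 (Colgalt2) drives a tagged ribosomal protein. In TRAP, an affinity purification of ribosomes, these tagged ribosomes are captured together with the messages they carry. All mice drank 1% saccharine for 15 to 18 days, and the treated group's solution also held 0.167 mg/ml of the antidepressant fluoxetine. There were 3 Affymetrix arrays per treatment, each from an independent purification. The number of mice behind each purification is not stated in the labels. Every array carries a replicate number, 1 to 3, in its title.

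The sample titles and the short sample descriptions name opposite treatments. Groups follow the titles, and the arrays are called FLX-titled and VEH-titled. Were the descriptions correct, all treatment differences given here would keep their size and change sign. The series' design text also speaks of an S100a10 transgene that labels some non-neuronal cells. A difference may come from fewer cells of a type or from less RNA per cell, and bulk RNA cannot tell these apart.

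Classical cadherins bind the same cadherin on the facing cell in the presence of calcium and are tied to actin through catenins. Protocadherins are the largest branch of the wider cadherin superfamily in the brain. The clustered genes give single neurons a surface identity, and the delta protocadherins act in axon growth and synapse formation. Neurexins on the presynaptic side bind neuroligins and LRRTM proteins on the postsynaptic side, and these bridges recruit the receptors and release machinery of the synapse. Immunoglobulin proteins, among them NCAM, SynCAM and the contactins, work beside them in axon growth, synapse assembly and the organisation of the node of Ranvier.

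The arrays hold no unpurified RNA, so enrichment of the labelled cell type was not measured. All 9 measured layer 5 genes passed the filter, Colgalt2 among them, where 10830 of 18193 measured genes did so in all. Markers of other cell types were present too, with 11 of 11 astrocyte, 7 of 7 oligodendrocyte, 6 of 6 oligodendrocyte precursor, 6 of 8 microglia, 8 of 8 interneuron and 5 of 10 vessel genes past the filter. VEH-titled array 3 was the lowest of the 6 arrays in these lists apart from the vessel genes, with a median log2 deviation of -0.76 for astrocyte and -0.91 for microglia genes, against 0.14 for layer 5 genes. The 2 arrays numbered 1 stood apart from the others over all genes, on a first principal component that held 60.0% of the variance. Median intensity lay between 23.0 and 23.4 on the 6 arrays, whose number limits the precision of every difference.

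The first comparison asks whether fluoxetine altered the translated messages of these genes. No adhesion gene passed limma with Benjamini-Hochberg adjustment over 19073 probe sets (smallest adjusted p = 1), where 0% of all probe sets passed. None had an unadjusted p under 0.05, and 0 of 55 compares with 64 of 10830 genes in all. The replicate number was then used as a block, which removes what arrays of equal number share. With it, 0% of probe sets and no adhesion gene passed the adjusted threshold. In that limma fit 1 of 55 adhesion genes, Pcdh18, had an unadjusted p under 0.05, beside 369 of 10830 genes in all. Pcdh18 passed the intensity filter only through the FLX-titled group, where it was high, so its p-value is a description and no test. Of the 55 genes, 28 had a positive and 27 a negative log2 difference (FLX-titled minus VEH-titled), and their median was 0.0054, beside -0.0068 over all genes. The differences ran from -0.28 for Pcdhb7 to 0.62 for Pcdh18, and 53 of 55 were smaller than 0.25 in size. For 52 genes the 95% interval of the difference lay within 2-fold in either direction, and for 32 it lay within 1.5-fold (52 with the replicate block).

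**Figure D1:**
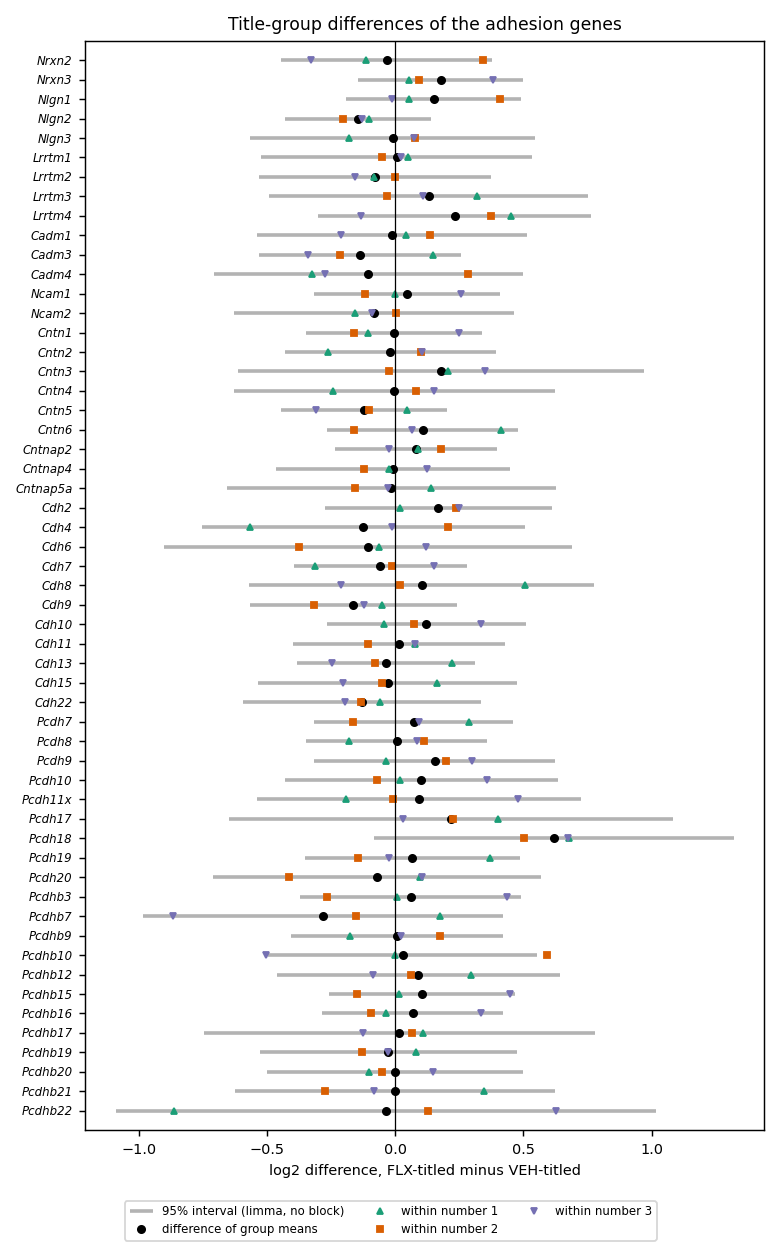
Log2 difference between FLX-titled and VEH-titled arrays (x axis) for each of the 55 adhesion genes (y axis), with the 95% interval from limma without a block as a grey bar and the differences within replicate numbers 1, 2 and 3 as coloured marks. Every grey bar crosses 0, and the coloured marks lie on both sides of 0 for most genes, while all 3 marks of Pcdh18 are positive.

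Compared number by number, 4 adhesion genes were higher and 4 lower in the FLX-titled array all 3 times. Over all genes these shares were 10.9% and 13.1%, both above the share of 4 in 55 found here in either direction. The genes higher in every pair were Nrxn3, Cdh2, Pcdh17 and Pcdh18, and those lower were Nlgn2, Lrrtm2, Cdh9 and Cdh22. By brightest probe set, values of the groups did not overlap for Nlgn2 alone, lower in the FLX-titled arrays. A second probe set of Pcdh11x had 164, 187.5 and 164 in the FLX-titled arrays, all above the 154, 146 and 141 of the VEH-titled arrays. Over all genes the groups did not overlap for 1.63% in the higher and 1.98% in the lower direction, so a count of 1 among 55 is near the background.

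The promoters of 3 members are shown, chosen by brightest probe set. Nlgn2 was the gene whose groups did not overlap, and Pcdh18 and Pcdh17 had the widest differences of equal sign in every pair. Sequences are from RefSeq, build GRCm38.p6, from 250 bases before to 50 after the gene start, 5′ to 3′ on the gene's strand, with matches to GGGCGG (GC box), TATAAA (bound by the general transcription machinery) and TGACG (core of the cyclic AMP response element) on either strand in capitals. They lie at chr11:69837735-69838034 (minus strand), chr3:49757267-49757566 (minus strand) and chr14:84443313-84443612 (plus strand).
Nlgn2: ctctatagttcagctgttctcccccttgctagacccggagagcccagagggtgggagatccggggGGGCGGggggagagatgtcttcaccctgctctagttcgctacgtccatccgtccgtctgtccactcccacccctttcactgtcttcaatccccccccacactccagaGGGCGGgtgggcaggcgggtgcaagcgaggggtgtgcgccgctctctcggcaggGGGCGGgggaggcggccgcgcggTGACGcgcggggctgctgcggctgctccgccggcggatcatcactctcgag
Pcdh18: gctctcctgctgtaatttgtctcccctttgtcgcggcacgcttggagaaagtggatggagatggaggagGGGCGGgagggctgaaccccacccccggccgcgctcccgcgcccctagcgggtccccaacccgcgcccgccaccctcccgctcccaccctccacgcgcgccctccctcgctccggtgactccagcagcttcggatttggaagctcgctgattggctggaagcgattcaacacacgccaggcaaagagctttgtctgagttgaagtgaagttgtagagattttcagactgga
Pcdh17: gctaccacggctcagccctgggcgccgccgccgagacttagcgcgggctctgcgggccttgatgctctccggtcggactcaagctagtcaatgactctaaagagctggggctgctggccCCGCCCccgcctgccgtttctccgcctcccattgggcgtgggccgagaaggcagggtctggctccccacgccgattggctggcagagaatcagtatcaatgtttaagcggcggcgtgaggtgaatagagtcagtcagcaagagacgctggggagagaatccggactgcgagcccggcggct

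GC boxes were found 3 times in the Nlgn2 window, 1 time in that of Pcdh18 and 1 time in that of Pcdh17. A GC box was in 35.7% of all 32851 promoters and in 16 of the 43 promoters of the 31 adhesion genes that had a sequence. TGACG was found in the Nlgn2 window alone of the 3 shown, in 20.8% of all promoters and in 9 of the adhesion gene promoters. TATAAA was in 13.6% of all and 3 of the adhesion gene promoters, and in none of the 3. The E-box CACGTG was in 7.15% of all and in 1 of the adhesion gene promoters. A match describes the letters in the window and not a bound site. The adhesion gene promoters had a median of 12 CpG sites, against 7 over all, and the 3 shown had 26, 23 and 26.

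Neurexins and neuroligins form the synaptic bridge, neurexins on the presynaptic side. Neurexin 3, Nrxn3, had intensities of 3632, 3948 and 3858 in the FLX-titled arrays and 3495, 3699 and 2960.3 in the VEH-titled arrays. The lowest value was that of VEH-titled array 3, and the groups overlap. Its log2 difference was 0.18 ± 0.14 (SE), with a 95% interval of -0.15 to 0.50 and pair differences of 0.055, 0.094 and 0.38. Without VEH-titled array 3 the difference was 0.084, and as the mean over its probe sets past the filter it was 0.049. Neurexin 2, Nrxn2, had 1241, 1204 and 1073 in the FLX-titled arrays and 1342, 950.0 and 1347 in the VEH-titled arrays. Its groups overlap, with VEH-titled array 2 the lowest of the 6, and its log2 difference was -0.033 ± 0.18 (SE).

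Neuroligin 2, Nlgn2, the neuroligin of inhibitory synapses, had intensities of 3676, 3857 and 3879.6 in the FLX-titled arrays and 3944, 4439 and 4248 in the VEH-titled arrays. All FLX-titled values lay below all VEH-titled values, with 3879.6 below 3944 at the closest. Group means were 3804 ± 112 and 4210.1 ± 249 (mean ± SD, n = 3 each). The log2 difference was -0.15 ± 0.12 (SE) with an unadjusted p of 0.269 and an adjusted p of 1 in limma, and the groups overlapped after quantile normalization. Neuroligin 1, Nlgn1, which sits at excitatory synapses, had 310.1, 309.7 and 272 in the FLX-titled arrays and 299, 234 and 274 in the VEH-titled arrays. Its values overlap, and the log2 difference of 0.15 ± 0.15 (SE) came mainly from number 2, whose pair differed by 0.41. Neuroligin 3, Nlgn3, found at both kinds of synapse, had 815, 693 and 562 in the FLX-titled arrays and 923, 657 and 535 in the VEH-titled arrays. It was high on both arrays numbered 1 and low on both numbered 3, and its title groups differed by -0.01 ± 0.24 (SE).

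LRRTM proteins are postsynaptic partners of neurexins. Lrrtm4 had intensities of 1315, 1182 and 743 in the FLX-titled arrays and 961, 912 and 814 in the VEH-titled arrays. Its log2 difference of 0.23 ± 0.23 (SE) was the widest of the family, positive within numbers 1 and 2 and negative within number 3 (-0.13). It was 0.069 without FLX-titled array 1 and 0.48 without FLX-titled array 3. A second probe set of Lrrtm4 had 473, 472 and 302 and 426, 393 and 332 in the FLX-titled and VEH-titled arrays, with a difference of 0.094. Lrrtm2 had 217, 312 and 228 in the FLX-titled arrays and 230.1, 312 and 254 in the VEH-titled arrays, a difference of -0.08 ± 0.19 (SE) whose sign was negative in every pair, although pair 2 was nearly level (-0.0014). For Lrrtm1 and Lrrtm3 the differences were 0.0059 and 0.13.

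Among the SynCAM proteins, immunoglobulin adhesion proteins of both synaptic sides and of glial contacts, Cadm3 had the widest difference. It had 1293, 1029.7 and 877 in the FLX-titled arrays and 1167, 1194 and 1112 in the VEH-titled arrays, with the FLX-titled values spread around the VEH-titled ones and a log2 difference of -0.14 ± 0.17 (SE). Other probe sets of Cadm3 had differences of 0.093 and 0.18, opposite in sign. For Cadm1 and Cadm4 the differences were -0.012 and -0.10. The neural cell adhesion molecule genes Ncam1 and Ncam2 differed by 0.046 and -0.082, and Ncam2, the wider of them, had 129, 89.4 and 91.5 in the FLX-titled arrays and 144, 89.3 and 97.4 in the VEH-titled arrays. Its values overlap fully, and both arrays numbered 1 stood above the rest.

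Contactins are GPI-anchored partners of contactin-associated proteins, sodium channels and other adhesion proteins. Cntn3 had the widest difference of the 6 contactins, with 596, 359 and 310.1 in the FLX-titled arrays and 517, 365 and 243 in the VEH-titled arrays and a log2 difference of 0.18 ± 0.34 (SE). The spread between its numbered pairs was larger than the difference within them. Cntn1, which pairs with Cntnap1 beside the node of Ranvier, differed by -0.0057, Cntn2 by -0.018, Cntn4 by -0.0031, Cntn5 by -0.12 and Cntn6 by 0.11. Cntnap2, the partner of Cntn2 that clusters potassium channels along the axon, had 1645, 1563 and 1366 in the FLX-titled arrays and 1546, 1382 and 1391 in the VEH-titled arrays, a log2 difference of 0.08 ± 0.13 (SE). The remaining members, Cntnap4 and Cntnap5a, differed by -0.0078 and -0.015.

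Of 21 measured cadherins, 11 passed the filter, with a median log2 difference of -0.035. N-cadherin, Cdh2, the type I cadherin of most neuronal contacts, had intensities of 1132, 1679 and 1341 in the FLX-titled arrays and 1116, 1425 and 1129 in the VEH-titled arrays. It was high on both arrays numbered 2, its groups overlap, and its log2 difference was 0.17 ± 0.19 (SE), smallest in pair 1 (0.02). It was 0.019 without FLX-titled array 2 and 0.30 without FLX-titled array 1. The type II cadherin Cdh9, known for specific hippocampal synapses, had 377, 345 and 289.7 in the FLX-titled arrays and 391, 429 and 316 in the VEH-titled arrays, with differences of -0.052, -0.31 and -0.12 in pairs 1 to 3. Cdh22, another type II cadherin, had 1043, 1125 and 1417 in the FLX-titled arrays and 1087, 1235 and 1623 in the VEH-titled arrays. Both arrays numbered 3 stood above the rest for Cdh22, and its title groups differed by -0.13 ± 0.20 (SE). The other differences were -0.12 for Cdh4, -0.11 for Cdh6, -0.058 for Cdh7, 0.10 for Cdh8, 0.12 for Cdh10, 0.016 for Cdh11, -0.03 for Cdh15 and -0.035 for Cdh13, the GPI-anchored T-cadherin. None of these 11 genes had an unadjusted p under 0.05 in limma.

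The protocadherins held the widest differences in both directions. Of 35 measured genes 21 passed, 15 with a positive and 6 with a negative difference, and a median of 0.06. That median turned to -0.073 without VEH-titled array 3, was 0.15 without VEH-titled array 2, and was 0.0081 with no intensity filter. Pcdh18, a delta-2 protocadherin, had intensities of 92.1, 70.8 and 49.9 in the FLX-titled arrays and 57.5, 50.0 and 31.3 in the VEH-titled arrays. Within each replicate number the FLX-titled array was the higher one, while across numbers the groups overlap, since the VEH-titled value of number 1 lay above the FLX-titled value of number 3. Group means were 70.9 ± 21.1 and 46.2 ± 13.5 (mean ± SD, n = 3 each), so Pcdh18 passed the filter of 50 through the FLX-titled group alone, where it was high, and its difference is a description. The log2 difference was 0.62 ± 0.30 (SE), a 1.54-fold difference, with pair differences of 0.68, 0.50 and 0.68 and an unadjusted p of 0.0752 in limma (adjusted p = 1). Setting intensities under 50 to 50 reduced the difference to 0.39, and it was 0.36 without VEH-titled array 3 and 0.85 without FLX-titled array 3. The other probe sets of Pcdh18 stayed below an intensity of 20 on every array and add nothing to this.

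Vessel cell markers had medians in the same direction as Pcdh18: the 5 of 10 that passed the filter had median pair differences of 0.36, 0.50 and 0.35. Not all of them moved alike. Within number 3, Cldn5 (663 FLX-titled, 721 VEH-titled) and Slco1a4 (141 and 209) were lower in the FLX-titled array, and Acta2, Pdgfrb and Rgs5 were higher. The summed intensity of the 5 markers lay between 1792 and 2226 in the FLX-titled and between 1294 and 1728 in the VEH-titled arrays. The vessel genes Flt1, Kdr, Pecam1, Tagln and Tek stayed below the filter. The part of vessel cells in the Pcdh18 difference was not tested. The endothelial cadherin gene Cdh5 was among the adhesion genes below the filter, with group means of 16.8 and 14.3.

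Pcdh17, a delta-2 protocadherin of presynaptic assembly, had 578, 1053 and 1024 in the FLX-titled arrays and 438, 900.5 and 1003 in the VEH-titled arrays. Both arrays numbered 1 stood far below the others, and the pair differences were 0.40, 0.23 and 0.03. Its log2 difference was 0.22 ± 0.37 (SE), and a second probe set of Pcdh17 gave 0.059. Without VEH-titled array 1 the sign turned, to -0.15. The remaining delta protocadherins differed by 0.071 for Pcdh7, 0.0054 for Pcdh8, 0.15 for Pcdh9, 0.10 for Pcdh10, 0.093 for Pcdh11x, 0.067 for Pcdh19 and -0.071 for Pcdh20. Over the 55 adhesion genes the median differences within numbers 1, 2 and 3 were 0.019, -0.025 and 0.03. Within number 3 the medians were 0.83 for astrocyte, 0.54 for oligodendrocyte, 0.78 for microglia and -0.14 for layer 5 markers, and the part of these cells in the adhesion values was not tested.

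**Figure D2:**
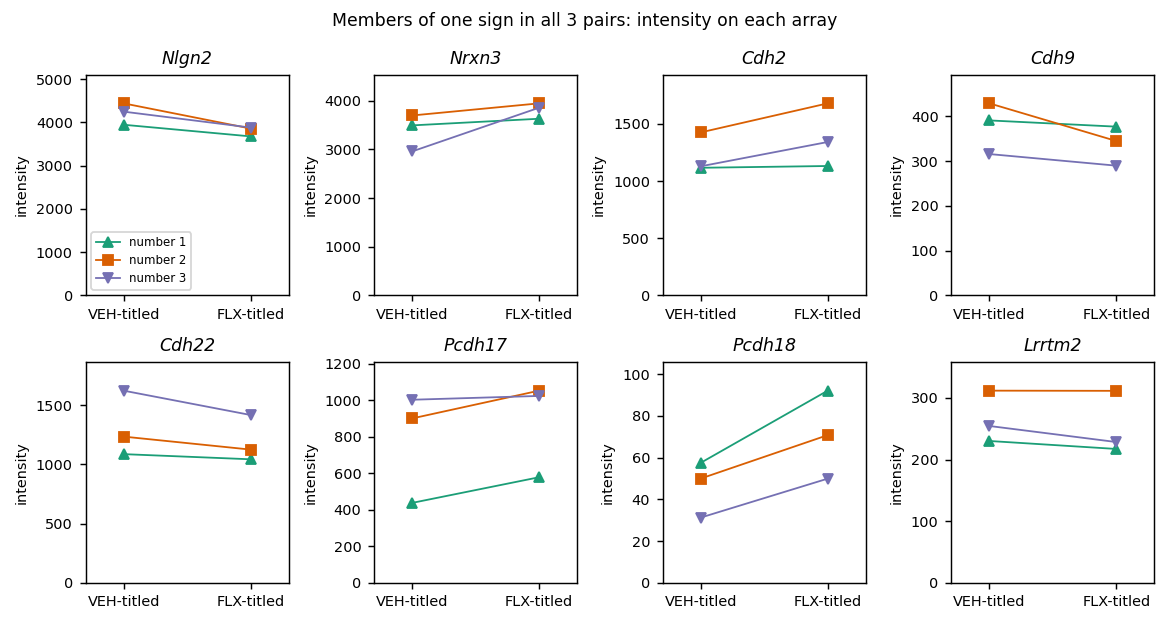
Intensity (y axis, from 0) of the 8 adhesion genes whose difference had the same sign within replicate numbers 1, 2 and 3, on VEH-titled and FLX-titled arrays, with a line joining arrays of equal number. All 3 lines of Pcdh18 run upward, from 31.3 to 49.9 at the lowest and from 57.5 to 92.1 at the highest, and those of Nlgn2 end below every VEH-titled point.

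The beta protocadherins lie side by side in 1 gene cluster, each with its own promoter, and 12 of 22 measured passed the filter. Their median log2 difference was 0.011, with 7 positive and 5 negative, and no member had the same sign in all 3 pairs. Pcdhb7 had the widest difference among them, -0.28 ± 0.30 (SE), from 119.6, 173 and 92.5 against 106, 192 and 168 in FLX-titled against VEH-titled arrays. Most of it lay in pair 3, at -0.86. Pcdhb22 varied most of all 55 genes, with a highest value 3.20 times its lowest, yet its title groups differed by -0.036 because pair 1 (-0.86) and pair 3 (0.63) opposed each other. The other differences lay between -0.027 for Pcdhb19 and 0.10 for Pcdhb15, with Pcdhb3, Pcdhb9, Pcdhb10, Pcdhb12, Pcdhb16, Pcdhb17, Pcdhb20 and Pcdhb21 in between. These genes are similar in sequence, and probe sets may read more than 1 of them. Another 6 probe sets named several alpha protocadherins at once and were left out by the single-symbol rule.

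More adhesion genes differed in the second comparison, by replicate number. Each number has 1 array of either title group. In a limma fit with title group as a term, 11 of 55 adhesion genes (20.0%) differed between the replicate numbers at an adjusted p under 0.05, where 12.9% of all genes did. They were Lrrtm1, Lrrtm3, Nlgn3, Ncam2, Cntn3, Cntn4, Cntnap5a, Cdh6, Pcdh17, Pcdh18 and Pcdhb17. Each number has 2 arrays, and its meaning (a day, a litter or a batch) is not given in the labels. With no intensity filter, 0 of 80 adhesion genes passed this limma test after adjustment. The share of all genes in that setting is not given here, so the change cannot be read as particular to adhesion genes.

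**Figure D3:**
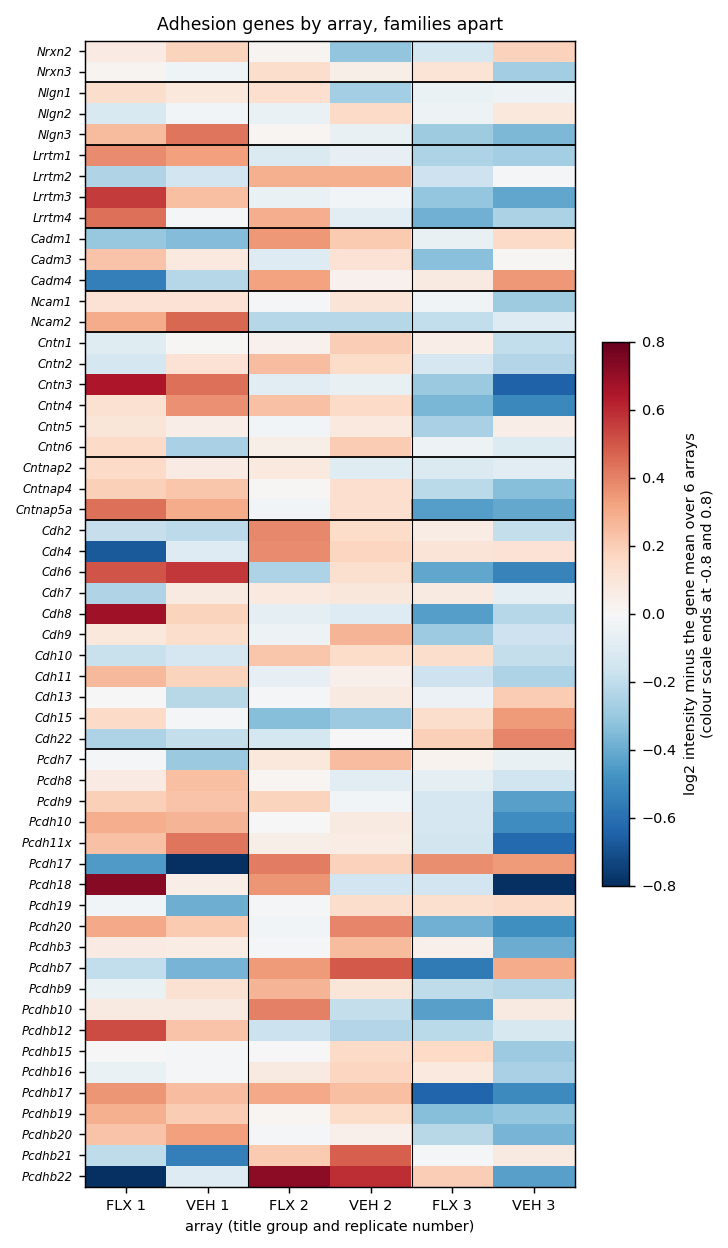
Log2 intensity of each adhesion gene (rows, families apart) on each array (columns, ordered by replicate number), as the deviation from the gene's mean over 6 arrays, red above and blue below. Columns of equal number look alike: Lrrtm1, Cntn3, Cdh6 and Cntnap5a are red on both arrays numbered 1 and blue on both numbered 3, and Pcdh17 and Cadm4 run the other way on number 1.

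On both arrays numbered 1, 18 adhesion genes (32.7%) stood above the other 4 arrays and 7 (12.7%) below them, where all genes gave 24.4% and 19.9%. On both arrays numbered 2, 11 (20.0%) stood above and 2 (3.64%) below the rest, where all genes gave 11.4% and 12.6%. On both arrays numbered 3, 1 stood above and 22 (40.0%) below the rest, where all genes gave 10.3% and 14.8%. There were 15 genes (27.3%) both highest on number 1 and lowest on number 3, against 6.34% of all genes. They were Cdh6, Cdh8, Cdh11, Cntn3, Cntnap4, Cntnap5a, Lrrtm1, Lrrtm3, Ncam1, Nlgn3, Pcdh9, Pcdh10, Pcdh11x, Pcdhb19 and Pcdhb20. Ncam1 is named by its brightest probe set, which differed by 0.17 for number 1 against the others (limma adjusted p = 0.349). Another probe set of Ncam1 was lowest on both arrays numbered 1, with -0.45 (adjusted p = 0.032). The remaining Ncam1 probe set past the filter had -0.34 and did not pass. Taken by title group, array 3 was the lowest of the 3 FLX-titled arrays for 33 adhesion genes (60.0%, all genes 32.1%) and the lowest of the 3 VEH-titled arrays for 34 (61.8%, all genes 37.1%). With the mean over probe sets of each gene, 13 adhesion genes were highest and 10 lowest on number 1. In that setting 22 were lowest on number 3. The counts for number 1 thus depend on the choice of probe set, and shares over all genes in that setting are not given here. All these shares describe the list and carry no test of it.

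Tested gene by gene in limma, 12 adhesion genes (21.8%) were higher and 4 (7.27%) lower on number 1 than on the others at an adjusted p under 0.05, against 10.3% and 9.09% of all genes. On number 3, 3 (Cntn3, Pcdh18 and Pcdhb17) were lower and 0 higher, against 0.665% and 0.794% of all genes. Astrocyte, oligodendrocyte and microglia genes had median differences of -0.54, -0.47 and -0.87 for number 3 against the others, and layer 5 genes 0.091. For number 1 they were 0.099, -0.077, 0.47 and 0.085. The 2 arrays numbered 3 were unlike in these markers. Median log2 deviations of astrocyte, oligodendrocyte and microglia genes were -0.76, -0.59 and -0.91 on VEH-titled array 3. On FLX-titled array 3 they were 0.10, 0.0024 and -0.21. The part of other cell types in the differences by number was not tested. RNA quality, read as the log2 ratio of 3′ to 5′ signal of the actin control, lay between 2.70 (FLX-titled array 1) and 3.08 (FLX-titled array 3), with 3.05 and 2.91 on VEH-titled arrays 1 and 3. The same ratio of the Gapdh control was 0.88, 1.37 and 1.63 on FLX-titled arrays 1 to 3 and 1.25, 1.23 and 1.28 on the VEH-titled ones, and the part of RNA quality was not tested.

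**Figure D4:**
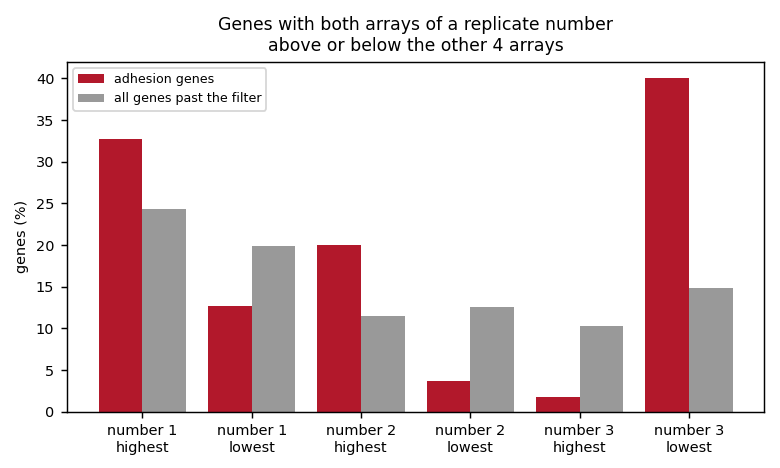
Share of genes (y axis, %) for which both arrays of a replicate number lay above (highest) or below (lowest) the other 4 arrays, for the 55 adhesion genes in red and all 10830 genes past the filter in grey. The red bar for number 3 lowest stands at 40.0% beside a grey bar of 14.8%.

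Among the genes of the synaptic bridge, Lrrtm1 had 4382 and 4233 on the arrays numbered 1, 3108 and 3224 on those numbered 2, and 2837 and 2796 on those numbered 3 (FLX-titled first). Lrrtm3 had 2104 and 1689 for number 1, 1376 and 1408 for number 2, and 1152 and 1069.9 for number 3. Differences of number 1 from the others were 0.53 ± 0.11 (SE) and 0.60 ± 0.12 on the log2 scale (limma adjusted p = 0.018 and 0.0179). These calls hold for the brightest probe sets alone, since the others had -0.17 and -0.35 for Lrrtm1 and -0.046 and 0.02 for Lrrtm3, and none of them passed. Nlgn3 was higher by 0.51 ± 0.12 on number 1 (adjusted p = 0.0252), while Nlgn2, with -0.11, varied by 1.21-fold over the 6 arrays, less than all other adhesion genes but Cntnap2 (1.20-fold).

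In the immunoglobulin families, Cntn3 had 596 and 517 on the arrays numbered 1, 359 and 365 on those numbered 2, and 310.1 and 243 on those numbered 3 (FLX-titled first). It was higher on number 1 by 0.82 ± 0.12 (limma adjusted p = 0.0076), the widest increase there among the adhesion genes, while its second probe set had -0.081 and did not pass. Cntnap5a and Ncam2 were higher too, by 0.55 and 0.57. The SynCAM genes Cadm1 and Cadm4 were lower, with differences of -0.49 and -0.58 (adjusted p = 0.0338 and 0.0406). The other probe sets of Cadm1 did not pass and had 0.091, 0.12 and 0.16. Cadm3 had 0.23 on its brightest probe set, which did not pass, and -0.32 and -0.56 on the others, of which the last passed (adjusted p = 0.027).

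Cadherins and protocadherins went both ways. The type II cadherin Cdh6 had 309 and 322 for number 1, 184 and 238 for number 2, and 163 and 150.1 for number 3, and Cdh8, another of that type, had 496 and 349.7 for number 1, 293 and 289 for number 2, and 228 and 264 for number 3. Number 1 differed from the others by 0.80 for Cdh6 and 0.64 for Cdh8 (limma adjusted p = 0.0108 and 0.0351). A second probe set of Cdh8 had -0.49, which did not pass, so the direction for Cdh8 holds for the brightest probe set alone. The type I cadherins Cdh2 and Cdh4 had -0.30 and -0.58, and neither passed. Pcdh17 was lower on number 1, with a difference of -0.98 (adjusted p = 0.00458), the widest difference of the 55 genes, and Pcdh18 was higher by 0.59 (adjusted p = 0.015). Both are delta-2 protocadherins. The second probe set of Pcdh17 had -0.26 and did not pass.

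Neighbours in the beta cluster were alike in some cases and not in others. Pcdhb19 and the next gene along the chromosome, Pcdhb20, were both highest on number 1 and lowest on number 3. Pcdhb20 had 859.8 and 924 for number 1, 730.0 and 756 for number 2, and 631 and 569 for number 3. Pcdhb21, which follows it, had 65.9 and 51.7 for number 1, 87.4 and 106 for number 2, and 75.2 and 79.6 for number 3, lowest on number 1. Their differences of number 1 from the others were 0.42 and -0.56 (limma adjusted p = 0.0435 and 0.041). Pcdhb12 and Pcdhb17 were higher on number 1, by 0.56 and 0.45, and Pcdhb17 was lower on number 3, with a difference of -0.86 (adjusted p = 0.0356). On number 3, 1 of 12 beta genes had a positive difference (median -0.26), beside 11 of all 55 adhesion genes (median -0.22) and 4980 of 10830 genes (median -0.022).

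Different probe sets of the same adhesion gene did not always vary alike between replicate numbers. The chosen probe set of Nrxn3 was level between numbers, while another had 584, 1636 and 1186 in the FLX-titled and 551, 1652 and 1241 in the VEH-titled arrays, a difference of -1.32 for number 1 (limma adjusted p = 0.00156). For Nrxn2 a second probe set had 40.3, 103 and 78.1 and 38.5, 105 and 129 and a difference of -1.38, where the chosen one had 0.19. A second probe set of Pcdh9 gave -1.23 and the chosen one 0.31. Pcdh19 showed the widest gap, with 51.1, 162 and 153 and 22.7, 167 and 189 for one probe set, a difference of -2.30, and -0.31 for the chosen one. Of 28 adhesion genes with at least 2 probe sets past the filter, 17 (60.7%) had probe sets of opposite sign for number 1, beside 46.8% of 4406 such genes in all. These are signs only: in 0 of the 28 did probe sets pass the test in opposite directions, beside 2.36% of all such genes. For the treatment contrast the signs were opposite in 10 of the 28. Which transcript forms the probe sets read was not analysed here.

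**Figure D5:**
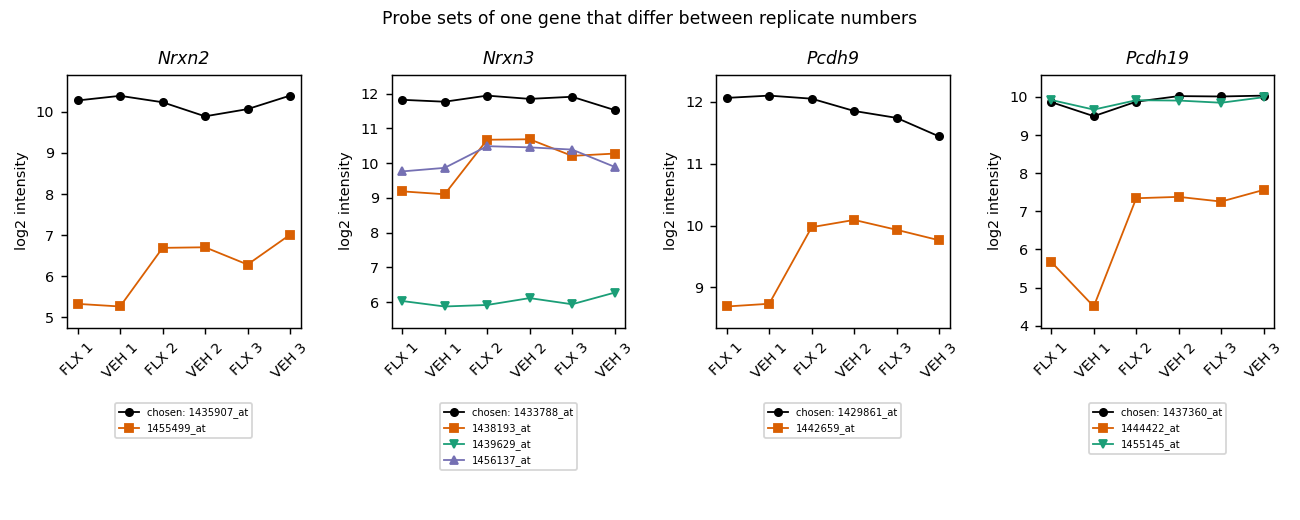
Log2 intensity (y axis) on each array (x axis, ordered by replicate number) of the probe sets past the filter for Nrxn2, Nrxn3, Pcdh9 and Pcdh19, with the probe set that stood for the gene in black. In each panel at least 1 coloured probe set is lowest on both arrays numbered 1, and the black one is lowest there for Pcdh19 alone, by a smaller margin.

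Genes that work with these proteins were read the same way, from lists of names. None of 93 list entries passed limma for the treatment contrast after adjustment. Of 10 catenins and other cytoplasmic partners of cadherins, 4 were higher and 0 lower in all 3 pairs, with a median difference of 0.027, beside 10.9% and 13.1% of all genes. Jup, the junction protein plakoglobin, differed by 0.36 ± 0.38, and alpha-catenin, Ctnna1, by 0.20 ± 0.14, each most in pair 3 (0.69 and 0.48). Of 8 further cadherin superfamily genes, 2 were higher and 1 lower in every pair (median -0.0076), with Clstn2 at 0.23 ± 0.18 and Fat1 at 0.18 ± 0.25.

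Of 39 other trans-synaptic organisers, 3 were higher and 6 lower in every pair. Their median treatment difference was -0.017. Lrrc4, which encodes a postsynaptic partner of netrin-G2, had 1056, 1179.7 and 1038 in the FLX-titled and 966, 843 and 798 in the VEH-titled arrays. Its groups did not overlap, and its difference was 0.33 ± 0.14 (unadjusted p = 0.0444 in limma, adjusted p = 1). Lrrc4 was named for its wide difference, so these values carry no test of it. In this list 1 of 39 genes had groups without overlap in the higher direction, beside 1.63% of all genes. An unadjusted p under 0.05 in limma was found for 1 of 39, beside 64 of 10830 genes in all. Slitrk3, a postsynaptic organiser of inhibitory synapses, differed by 0.29 ± 0.35. Among 19 other immunoglobulin adhesion genes 3 were higher and 1 lower in every pair (median -0.00083), with Kirrel3 at 0.14 and Opcml at 0.13. Of 17 scaffold genes for neurexins and neuroligins, 3 were higher and 1 lower in every pair (median 0.026), with Dlg4, the gene of PSD-95, at 0.24 ± 0.20 and Dlg3 at 0.072 ± 0.20. By replicate number, 1 of 10 cytoplasmic partners, 1 of 8 cadherin superfamily genes, 10 of 39 organisers, 3 of 19 immunoglobulin genes and 3 of 17 scaffold genes differed at an adjusted p under 0.05 in limma, beside 12.9% of all genes.

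The 25 genes below the filter were Cdh1, Cdh3, Cdh5, Cdh16, Cdh17, Cdh18, Cdh19, Cdh20, Cdh23, Cdh26, Pcdh1, Pcdh12, Pcdh15, Pcdhgc4, 10 beta protocadherins and Cntnap1. The nearest outside was Cdh19, with group means of 41.3 and 30.7, and the nearest inside was Cntn5, with 48.1 and 52.1. E-cadherin, Cdh1, of epithelia lay at 14.8 and 10.5, and Cntnap1, the partner of Cntn1 at the node of Ranvier, at 18.3 and 19.6.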

How the data were processed

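Per the labels, 15 ng of RNA were amplified for each array. The deposited values are linear intensities, 1 for each probe set on each array. Per the submitters' processing notes the authors used GCRMA, which corrects background from probe sequence and normalizes between arrays. No version is given. The design text also says that replicates were averaged, though the table holds single arrays, and advises a list of probe sets that was not used here.

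Of 45101 probe sets, 64 controls were left out and 19073 kept, those whose mean reached 50 in at least 1 title group. Names came from the platform annotation, in which 34945 probe sets had 1 symbol, 932 several and 9160 none. All 80 symbols matched the RefSeq table of GRCm38.p6, which was used for names and gene order. Differences (FLX-titled minus VEH-titled) were tested on log2 values in limma 3.58.1 (lmFit, eBayes, two-sided, R 4.3.3). The fits were first run on simulated data with changes wider than any adhesion gene difference. That run does not cover differences of the size found here. The 19073 p-values were adjusted by Benjamini-Hochberg, with a threshold of 0.05. Alternatives were other pseudocounts, floors, filters, normalization and probe set choices, leaving out arrays or pairs, and the replicate block. Log2 values of arrays correlated between 0.992 and 0.997, and no pair looked like a duplicate.

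Values on every array are given for neurexins, neuroligins, genes whose groups do not overlap, and in each other family the 3 widest differences of equal sign in all pairs and the widest of any; of each list of other genes, the 2 widest of equal sign. The members, lists and tests were chosen with earlier results of these data known, and the comparison by replicate number, with the genes and probe sets named in it, after the values were seen. Samples were paired by replicate number, whose meaning is not given in the labels. Deviations from group means correlated by 0.74, 0.60 and 0.50 within numbers and by -0.59 to 0.26 between them. Taking deviations from each group's own mean lowers correlations between unlike numbers, so part of this contrast is built in. The labels call the samples biological replicates.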

Additional observations from a re-analysis of the deposited data

How the results depend on the processing

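No adhesion gene passed the adjusted threshold for the treatment under any alternative run, and the count with the replicate block was 0, as without it. The number of arrays limits what could be seen. Of the 16 genes that the rule on named genes chose, 8 kept their sign under all 14 alternatives, and 17 of 224 values changed sign. Leaving out 1 array at a time, the log2 difference ranged from -0.26 to 0.033 for Cdh22, -0.10 to 0.44 for Cntn3, -0.24 to 0.042 for Lrrtm2, -0.25 to 0.13 for Ncam2, -0.19 to 0.20 for Nlgn3, -0.20 to 0.052 for Nrxn2 and -0.15 to 0.50 for Pcdh17, which changed sign. It kept its sign but moved by over 1.5 times with ranges of -0.28 to -0.0043 for Cadm3, 0.019 to 0.30 for Cdh2, -0.29 to -0.059 for Cdh9, 0.023 to 0.16 for Cntnap2, 0.069 to 0.48 for Lrrtm4, 0.052 to 0.23 for Nlgn1, 0.084 to 0.24 for Nrxn3 and 0.36 to 0.85 for Pcdh18. The median over the adhesion genes then ranged from -0.096 to 0.083. Without pair 1 that median was 0.037, Nlgn3 had 0.074 and Nrxn2 0.0069, and without pair 3 Nrxn2 had 0.12. As a mean over probe sets, Cadm3 had 0.044. With no intensity filter, 9 genes (of 80) were lower in all 3 pairs, 15 were lowest on both arrays numbered 1 and 0 differed by replicate number. Adding 16 before the log2 gave 18 genes that differed by number. Under quantile normalization 0 genes were lower without overlap. Genes highest on both arrays numbered 3 were 2 with no filter, with quantile normalization and with the mean over probe sets. Shares over all genes under these alternatives are not given, so the counts describe the adhesion genes alone. The comparison by number and its alternatives were chosen after the data were seen. The causes of these changes were not tested.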
